A study of Mus musculus with 45 samples.

Results

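Gpr183, the gene of the oxysterol receptor EBI2, was examined with 4 genes of enzymes that make or break down its ligand: Ch25h, Cyp7b1, Hsd3b7 and Cyp27a1. These 5 genes were picked by symbol from the 55450 rows of the gene table, each had 1 row, and they were followed across all 45 samples. Gpr183 was read in every sample and was the gene with the clearest pattern. Its mean level was highest in TFH cells and lowest in GC B cells, in WT and in S1PR4-/- mice. In WT the TFH and non-GC B samples overlapped. The enzymes were low. Cyp27a1 was read mainly in B cells, Hsd3b7 was low in all groups, Cyp7b1 was read almost only in TFH cells, and Ch25h gave 5 reads in the whole series. In the S1PR4-/- against WT tests none of these genes passed.

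EBI2 is a G protein-coupled receptor that guides activated lymphocytes within lymphoid organs towards its ligand, the oxysterol 7α,25-dihydroxycholesterol. CH25H adds a hydroxyl group to cholesterol at carbon 25, CYP7B1 adds one at the 7α position, and HSD3B7 inactivates the product, so that the balance of these enzymes shapes the ligand gradient. Much of this synthesis takes place in stromal cells of the lymph node. In the B cell response, EBI2 favours movement to the outer follicle, and its loss goes with entry into the germinal center (GC), while T helper cells use it to reach the T zone border. CYP27A1 is a mitochondrial enzyme that makes 27-hydroxycholesterol.

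The samples were CD4+ T cells and B cells sorted from the draining popliteal lymph nodes of mice immunized in the hind footpad with 20 µL of an emulsion of incomplete Freund's adjuvant holding 50 µg ovalbumin and 5 µg LPS. S1PR4-/- mice carried the S1pr4tm1Dgen allele, on a background crossed back to C57/BL6 for at least 10 generations, so the knockout is a germline loss in all cells of the mouse and not in the sorted cells alone. WT littermates were the controls, and both sexes were used at ages of 8 to 12 weeks. TFH cells (TCRβ+ CD4+ PD1+ CXCR5+) and non-TFH cells (PD1- CXCR5-) were taken on day 6, and GC B cells (B220+ GL7+ Fas+) and non-GC B cells (GL7- Fas-) on day 9, so any comparison of a B with a T population is also one of day 9 with day 6. Each population had 6 WT and 6 S1PR4-/- samples, except non-GC B cells, with 5 WT and 4 S1PR4-/- samples. The study's methods give 6 WT and 6 S1PR4-/- mice for these sorts, and p-values measure the spread between the samples.

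Libraries held 26299429 to 45548215 expected counts, and S1pr4 itself had 0 to 40 counts in S1PR4-/- samples against 505 to 6305 in WT samples. The sorted populations carried their defining transcripts: mean Cd3e was 697 to 869 CPM (the count scaled to library size) in the T cell groups and at most 0.367 CPM in the B cell groups, and mean Cd79a was 1330 to 2860 CPM in the B cell groups and at most 22.7 CPM in the T cell groups. In sorted populations fewer cells of a type and less RNA per cell cannot be told apart.

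In the mm10 build, Gpr183 (ENSMUSG00000051212.8) lies on the minus strand at chr14:121952551-121965195, inside the span of Ubac2 on the other strand, with which it shares 0 exon bases. Ch25h (ENSMUSG00000050370.5) is a single exon at chr19:34473778-34475164, and 159 of its exon bases overlap the non-coding Gm26902 on the other strand. Cyp7b1 (ENSMUSG00000039519.6) spans chr3:18071950-18243338 on the minus strand. Hsd3b7 (ENSMUSG00000042289.11) lies on the plus strand at chr7:127800604-127803802. It shares 1717 exon bases with Gm49388 on its own strand and 1729 with 9430064I24Rik on the other strand. Its expected count was a fraction in 31 of 45 samples. The authors' counting can split reads between such genes, and its level is uncertain by any such split, whose size was not tested. Gm49388 itself was listed at no more than 0.254 CPM in any group, and 9430064I24Rik at no more than 0.116 CPM. Cyp27a1 (ENSMUSG00000026170.6) lies at chr1:74713574-74737892 on the plus strand.

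Gpr183 was read at high levels in TFH, non-TFH and non-GC B cells and at far lower levels in GC B cells. In TFH cells the lowest, median and highest of 6 samples were 396.0, 491.9 and 560.2 CPM in WT and 477.4, 530.0 and 606.7 CPM in S1PR4-/- mice. In non-TFH cells they were 259.9, 284.8 and 310.7 CPM in WT and 247.0, 261.4 and 307.6 CPM in S1PR4-/- mice. All TFH samples thus lay above all non-TFH samples of either genotype. The 5 WT non-GC B samples were at 362.5, 373.0, 411.0, 383.4 and 348.5 CPM, and the 4 S1PR4-/- ones at 382.8, 321.0, 361.8 and 381.8 CPM. In WT the lowest TFH sample, at 396.0 CPM, was thus below the highest non-GC B sample, at 411.0 CPM. In GC B cells the lowest, median and highest values were 44.6, 71.0 and 123.3 CPM in WT and 37.0, 53.5 and 66.6 CPM in S1PR4-/- mice. Every GC B sample lay below every sample of the other 3 populations.

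**Figure D1:**
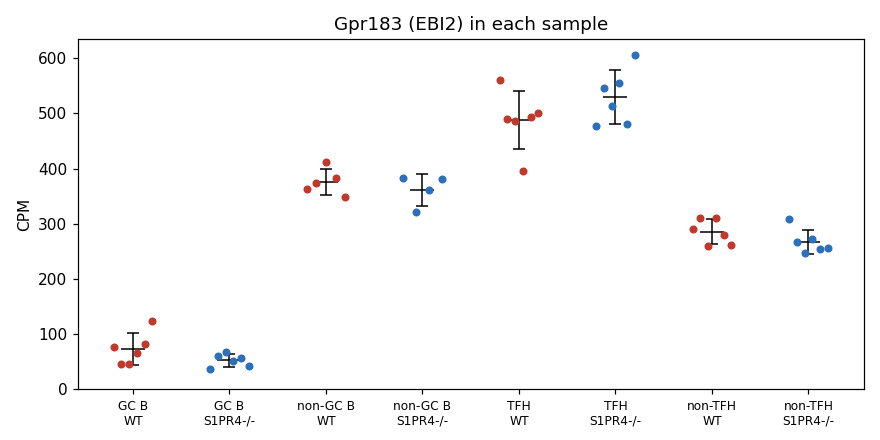
Gpr183 in CPM (vertical axis) in each of the 45 samples, by population and genotype (horizontal axis). Points are samples, red for WT and blue for S1PR4-/-, the horizontal bars are means and the whiskers are 1 SD. The GC B samples lie between 37.0 and 123.3 CPM, below all others, and the TFH samples between 396.0 and 606.7 CPM.

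The first question was whether S1PR4 loss changed this receptor. In GC B cells Gpr183 averaged 73.0 ± 29.0 CPM in WT and 52.1 ± 11.4 CPM in S1PR4-/- mice (SD, n = 6 each), and the genotypes overlapped. The log2 difference of S1PR4-/- from WT was -0.49 (95% interval -0.99 to 0.02), and edgeR's quasi-likelihood test gave an adjusted p of 0.985. The difference was -0.05 (SE 0.07) in non-GC B cells, 0.11 (SE 0.08) in TFH cells and -0.09 (SE 0.06) in non-TFH cells, with edgeR adjusted p of 0.995, 0.476 and 0.654. Of the 5 genes, 3 were tested in GC B cells, 3 in non-GC B cells, 4 in TFH cells and 2 in non-TFH cells, and 0 were called (adjusted p under 0.05 and a fold over 1.5) in each, at an unadjusted p under 0.05 also 0. DESeq2 called 0 of them as well. Among all genes tested, edgeR called 0.0612% in GC B cells, 0.0537% in non-GC B cells, 0.496% in TFH cells and 0.114% in non-TFH cells.

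The GC B sample with the most Gpr183 was WT replicate 6. Leaving it out moved the log2 difference of S1PR4-/- from WT from -0.49 to -0.27. This sample, at 123.3 CPM of Gpr183, also had the highest levels among the 12 GC B samples of Ccr7 (216 CPM) and S1pr1 (164 CPM), the genes of a chemokine receptor and an S1P receptor, both of which are typical of naive and recirculating lymphocytes. It had the lowest summed level of the GC B marker list, 1642 CPM. Its summed macrophage and monocyte markers, 237.2 CPM, were the highest of the 12 samples, the others lying at 42.3 to 145.1 CPM. In the order of rising Gpr183, the 6 WT samples had macrophage and monocyte sums of 48.4, 50.2, 89.4, 113.7, 103.8 and 237.2 CPM, so in WT these sums rose with Gpr183 but for 1 step. The 6 S1PR4-/- samples, in their own order of rising Gpr183, had 53.1, 63.2, 145.1, 42.3, 65.0 and 81.2 CPM. In that order the highest and the lowest sum lay side by side in the middle. The order depends on the scaling. Scaled to total counts alone, S1PR4-/- replicate 3, the last of that order, had 54.2 CPM of Gpr183. Replicates 5 and 2 then had more, at 55.4 and 56.5 CPM. The S1PR4-/- replicate 1, with the least Gpr183 at 37.0 CPM, had 23.2 CPM of Ccr7 and 44.5 CPM of S1pr1. Summed plasma cell markers were 4043 to 8884 CPM in WT and 2060 to 17940 CPM in S1PR4-/- GC B samples. The highest S1PR4-/- sum was that of replicate 3, with the most Gpr183 of its group at 66.6 CPM. The highest WT sum was that of replicate 2, with the least Gpr183 of its group at 44.6 CPM. Ccr7 and S1pr1 were chosen here after their values were seen. The part of other B cells, plasma cells or macrophages in the GC B gate in these Gpr183 values was not tested.

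The second question was how the receptor differed between populations within each genotype. TFH cells had more Gpr183 than non-TFH cells by 0.78 on the log2 scale in WT (SE 0.08, edgeR adjusted p 4.71e-07) and by 1.00 in S1PR4-/- mice (SE 0.07, edgeR adjusted p 1.79e-08). Of the 2 members tested there, Gpr183 was the 1 called in either genotype, where 43.2% of all tested genes were called in WT and 43.4% in S1PR4-/- mice. The genotype effect in TFH cells minus that in non-TFH cells was 0.20 (unadjusted p 0.0661, edgeR adjusted p 0.571), so the larger difference in S1PR4-/- mice did not pass its own test, which 0.0139% of genes passed.

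In GC B cells Gpr183 was lower than in non-GC B cells, with log2 differences of -2.30 in WT (edgeR adjusted p 1.39e-06) and -2.74 in S1PR4-/- mice (SE 0.15, edgeR adjusted p 6.67e-08). Called members were 3 of 3 tested in WT, where 47.8% of all tested genes were called, and 2 of 3 in S1PR4-/- mice, where 48.2% were. The difference between the genotypes in this step was -0.43 (edgeR adjusted p 1), and 0 of 14490 genes passed that interaction test by edgeR, while 664 had an unadjusted p under 0.05 and DESeq2 called 6.

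Across lineages in WT mice, GC B cells had less Gpr183 than TFH cells, at a log2 difference of -2.73 (SE 0.22, edgeR adjusted p 9.97e-08). Called members were 2 of 3 tested, against 44.3% of all tested genes. Non-GC B cells had more than non-TFH cells by 0.46 (SE 0.07, edgeR adjusted p 6.19e-05). This difference is a fold of 1.37, under the limit of 1.5, although no WT sample of one group overlapped the other. There too 2 of 3 tested members were called, with 38.9% of all tested genes. In the order of group means, TFH S1PR4-/- and TFH WT came first, followed by non-GC B WT, non-GC B S1PR4-/-, non-TFH WT, non-TFH S1PR4-/-, GC B WT and GC B S1PR4-/-. Of the 7 pairs of neighbours in this order, 1 passed the exact test after adjustment: non-TFH S1PR4-/- cells lay above GC B WT cells by 1.96 on the log2 scale (exact permutation p 0.00216, two-sided, the smallest that 6 against 6 samples allow, and 0.0378 after Benjamini-Hochberg adjustment over 35 neighbour pairs of the 5 genes). The steps from TFH WT to non-GC B WT and from non-GC B S1PR4-/- to non-TFH WT had an adjusted exact permutation p of 0.0666 each. In the second of these the samples did not overlap, and its unadjusted exact permutation p of 0.00952 is the smallest that 6 against 4 samples allow.

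Among the synthesis enzymes, Ch25h was at 0 in 42 of 45 samples. Its 5 reads were 1 and 2 counts in WT non-GC B replicates 2 and 5, and 2 counts in WT TFH replicate 4. It was tested in none of the comparisons. A group with 0 counts allows up to 3 counts over the group, a limit of 0.0134 to 0.0233 CPM that covers counting error only, so Ch25h was not detectable beyond that depth in GC B, non-TFH and S1PR4-/- samples.

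Cyp7b1, the 7α-hydroxylase, was at 0 in 31 of 45 samples, and nearly all of its reads were in TFH cells. The 6 WT TFH samples held 12, 0, 7, 24, 16 and 27 counts, and the 6 S1PR4-/- TFH samples 64, 25, 2, 14, 93 and 57 counts. All 12 non-TFH and all 9 non-GC B samples were at 0. Among GC B samples, WT replicates 1 and 2 had 4 counts each, S1PR4-/- replicate 6 had 3, and the remaining 9 had 0. Every S1PR4-/- TFH sample was thus above every non-TFH sample, whereas 1 WT TFH sample was at 0 like the non-TFH samples.

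Against a limit of 3 counts over the non-TFH group, Cyp7b1 was at least 27.1-fold higher in WT TFH cells (exact permutation p 0.0152, two-sided, 0.0228 after Benjamini-Hochberg adjustment over 6 such tests) and at least 78.6-fold higher in S1PR4-/- TFH cells (exact permutation p 0.00216, the smallest possible, adjusted 0.013). Those exact tests were used because the gene failed the filter on low counts in these pairs. They compare mean log2 CPM between samples, while the folds come from counts pooled over each group and divided by total library counts. WT GC B cells had 0.102 times the Cyp7b1 CPM of WT TFH cells (exact permutation p 0.0216, adjusted 0.0259). The ratio was 0.063 without GC B replicate 1 and 0.0601 without GC B replicate 2, the samples that hold all of the GC B reads in WT.

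Within TFH cells Cyp7b1 averaged 0.387 ± 0.269 CPM in WT and 1.11 ± 0.885 CPM in S1PR4-/- mice (SD, n = 6 each). The log2 difference of S1PR4-/- from WT was 1.51 (SE 0.73, 95% interval -0.05 to 3.07), and the samples of both genotypes overlapped. It did not pass, with an unadjusted p of 0.0569 and an edgeR adjusted p of 0.277. With the mean log2 CPM of the 12 B cell markers as a covariate the difference was -0.01. Their summed CPM, another measure, was 386 to 703 in WT and 329 to 487 in S1PR4-/- TFH samples. Mean Cd79a was 22.7 CPM in WT and 4.17 CPM in S1PR4-/- TFH cells. Of the 12, Cd22 alone had a higher mean in S1PR4-/- TFH cells, at 194 CPM against 179 CPM in WT. Cd22 and Cd37 had the highest means of the list there. The summed level of 7 endothelial markers, of which 2 were at 0 in every sample of each group, was 0.0308 to 4.44 CPM in WT and 0.439 to 4.89 CPM in S1PR4-/- TFH samples, with medians of 0.937 and 2.83 CPM. It was 4.39, 4.70 and 4.89 CPM in S1PR4-/- replicates 1, 5 and 6, which had the most Cyp7b1, and 4.44 CPM in replicate 6, the highest of WT. It was 1.27, 0.439 and 1.25 CPM in S1PR4-/- replicates 2, 3 and 4, which had less. The sum was mainly that of Kdr, at a mean of 1.42 CPM in WT and 2.48 CPM in S1PR4-/- TFH cells. None of the other endothelial markers averaged above 0.215 CPM in these groups. Cdh5 averaged 0.0604 and 0.089 CPM there, below its 0.211 and 0.125 CPM in WT and S1PR4-/- non-TFH cells. The part of endothelial cells in the Cyp7b1 values was not tested. The comparison of this genotype effect with that in non-TFH cells could not be fitted, because both non-TFH groups were at 0.

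Hsd3b7, which inactivates the ligand, was low in all 8 groups. Its lowest, median and highest values were 1.11, 1.53 and 1.93 CPM in WT TFH cells and 1.04, 1.91 and 3.46 CPM in S1PR4-/- TFH cells. In non-TFH cells they were 0.977, 1.15 and 1.80 CPM in WT and 1.21, 1.36 and 3.01 CPM in S1PR4-/- mice. In GC B cells they were 0.486, 0.995 and 1.63 CPM in WT and 0.341, 0.936 and 1.25 CPM in S1PR4-/- mice. The T cell and GC B ranges overlapped in part. The 5 WT non-GC B samples had 0.360, 0.164, 0.341, 0.821 and 0.178 CPM, and the 4 S1PR4-/- samples 0.913, 0.397, 0.506 and 0.752 CPM. The WT non-GC B samples included the lowest values of the gene in the series.

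The genotypes did not separate for Hsd3b7. The log2 difference of S1PR4-/- from WT was -0.23 in GC B, 0.78 in non-GC B, 0.35 in TFH and 0.39 in non-TFH cells, with edgeR adjusted p of 0.985, 0.981, 0.566 and 0.646. Between populations, WT GC B cells had more Hsd3b7 than WT non-GC B cells by 1.5 (SE 0.47, edgeR adjusted p 0.0124), although the samples overlapped. In S1PR4-/- mice the same difference was 0.49 (SE 0.44, edgeR adjusted p 0.339). The change between genotypes in this difference was -1 (SE 0.63, edgeR adjusted p 1), so the WT and S1PR4-/- values were not shown to differ. WT non-GC B cells also had less than WT non-TFH cells, at a log2 difference of -1.66 (SE 0.43, edgeR adjusted p 0.00468), with no overlap. TFH against non-TFH cells gave 0.29 in WT and 0.27 in S1PR4-/- mice, neither called. GC B against TFH cells in WT gave -0.56 (edgeR adjusted p 0.0859), which passed at -0.75 (edgeR adjusted p 0.0248) once WT GC B replicate 6 was left out. None of the 7 neighbouring steps in the order of the 8 groups passed the exact permutation test after adjustment.

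**Figure D2:**
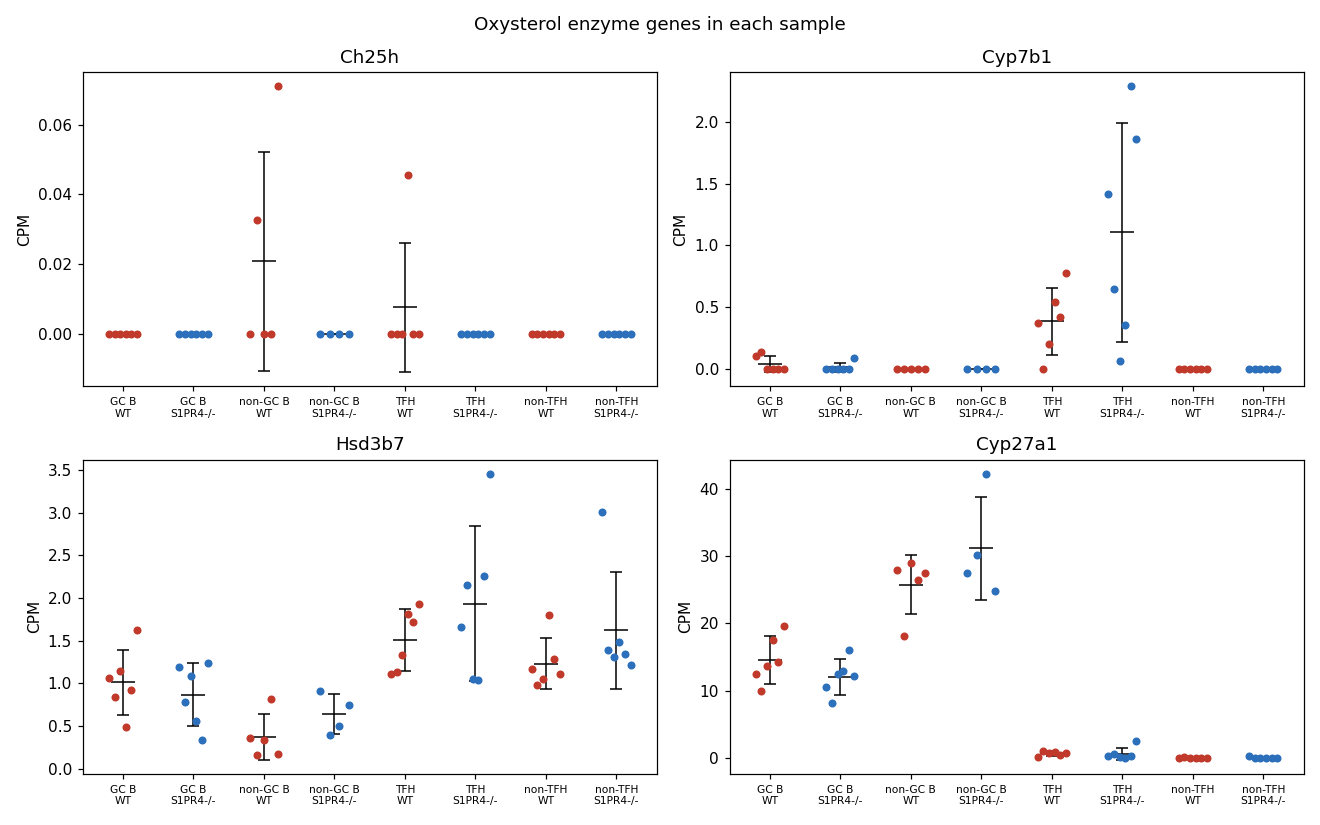
CPM (vertical axes) of the 4 enzyme genes in each of the 45 samples, by population and genotype (horizontal axes). Points are samples, red for WT and blue for S1PR4-/-, bars are means and whiskers 1 SD. Cyp27a1 lies at 8.14 to 42.2 CPM in B cells, Cyp7b1 has nearly all its reads in TFH cells, and Ch25h is at 0 in 42 samples.

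Cyp27a1 was the enzyme read at the highest level and was a gene of the B cell samples. The 5 WT non-GC B samples had 27.9, 18.1, 28.9, 26.5 and 27.5 CPM, and the 4 S1PR4-/- samples 27.4, 30.2, 42.2 and 24.8 CPM. In GC B cells the lowest, median and highest values were 9.92, 13.9 and 19.7 CPM in WT and 8.14, 12.3 and 16.1 CPM in S1PR4-/- mice. One WT non-GC B sample, replicate 2 at 18.1 CPM, lay within the WT GC B range, and in S1PR4-/- mice the populations did not overlap.

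GC B cells had less Cyp27a1 than non-GC B cells, with log2 differences of -0.76 in WT (SE 0.17, edgeR adjusted p 0.00177) and -1.31 in S1PR4-/- mice (SE 0.19, edgeR adjusted p 0.000118). The WT call was lost when all 8 groups shared one fit (-0.82, edgeR adjusted p 0.104). The difference between the genotypes was -0.54 (unadjusted p 0.0557, edgeR adjusted p 1). S1PR4-/- and WT cells differed by -0.27 in GC B cells and 0.28 in non-GC B cells, neither called. The direction of Cyp27a1 in GC B cells was that of Gpr183, with both lower, while WT Hsd3b7 was higher.

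T cells had little Cyp27a1. The 6 WT TFH samples had 0.216 to 1.09 CPM with a median of 0.839 CPM, and the 6 S1PR4-/- TFH samples 0.0764 to 2.51 CPM with a median of 0.352 CPM. Non-TFH samples had 0 to 0.244 CPM in WT and 0 to 0.335 CPM in S1PR4-/- mice. All TFH samples had reads, while 6 of the 12 non-TFH samples had none. WT GC B cells exceeded WT TFH cells by 4.31 on the log2 scale (SE 0.30, edgeR adjusted p 2.04e-08), and WT non-GC B cells exceeded WT non-TFH cells by 8.43 (SE 0.44, edgeR adjusted p 1.44e-09), or by 9.145 without non-TFH replicate 2. In the order of groups, 1 of the 7 neighbouring steps passed: GC B S1PR4-/- lay above TFH WT by 4.04 (exact permutation p 0.00216, two-sided, adjusted 0.0378).

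Between the T cell populations the ratios came from counts pooled over each group and divided by total library counts. The exact tests beside them compared mean log2 CPM between the samples, not the pooled ratios. TFH cells had 9.81 times the Cyp27a1 CPM of non-TFH cells in WT (exact permutation p 0.00433, two-sided, adjusted 0.013) and 8.82 times in S1PR4-/- mice (exact permutation p 0.0152, adjusted 0.0228). The WT ratio was 16.7 without non-TFH replicate 2. The S1PR4-/- ratio was 4.71 without TFH replicate 6 and 36.5 without non-TFH replicate 1. Between genotypes, the log2 difference in TFH cells was -0.09, and it was -1.11 (edgeR adjusted p 0.258) without S1PR4-/- replicate 6. In non-TFH cells the S1PR4-/- to WT ratio was 0.941 (exact permutation p 0.632).

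The highest Cyp27a1 value among T cells came with macrophage markers. S1PR4-/- TFH replicate 6, with 77 counts and 2.51 CPM of Cyp27a1, had a summed level of 469.5 CPM over 12 macrophage and monocyte markers, against 26.3 to 100 CPM in the other 11 TFH samples. The summed B cell markers were 329 to 703 CPM in TFH samples and 296 to 345 CPM in non-TFH samples, and 15400 to 16400 CPM in non-GC B samples. Mean Cd79a alone was 22.7 CPM in WT TFH, 4.17 CPM in S1PR4-/- TFH, 4.09 CPM in WT non-TFH and 0.571 CPM in S1PR4-/- non-TFH cells. WT TFH replicate 1 had the lowest Cyp27a1 of its group, 0.216 CPM, with a B cell marker sum of 697.6 CPM, and WT TFH replicate 3 had 0.871 CPM with the lowest macrophage sum of its group, 35.3 CPM. The part of B cells and macrophages in the TFH values of Cyp27a1 was not tested.

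**Figure D3:**
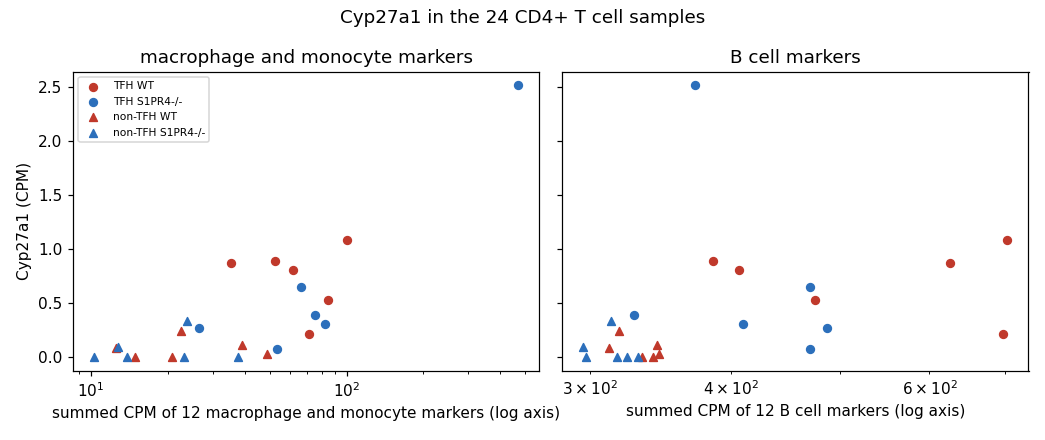
Cyp27a1 in CPM (vertical axes) against the summed CPM of 12 macrophage and monocyte markers (left) and of 12 B cell markers (right), on logarithmic horizontal axes, in the 24 T cell samples. Circles are TFH and triangles non-TFH samples, red for WT and blue for S1PR4-/-. The sample at 2.51 CPM has the highest macrophage marker sum, 469.5 CPM, and lies within the range of the others for B cell markers.

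In the edgeR tests, Gpr183, Hsd3b7 and Cyp27a1 were called only between populations, and Cyp7b1 was tested only between genotypes. Between populations Cyp7b1 had the exact tests given above. Over all genes, too, the share called was larger between populations than between genotypes. Between populations 38.9% to 48.2% of tested genes were called, against 0.0537% to 0.496% between S1PR4-/- and WT and at most 0.0139% in the interactions. Over 12 comparisons by edgeR, Gpr183 was tested in 12 and called in 5, and Hsd3b7 was tested in 12 and called in 2. Cyp27a1 was tested in 9 and called in 4, and Cyp7b1 was tested in 1 and called in 0. The intervals of the genotype differences also show what these data could resolve. For Gpr183 in TFH cells the 95% interval was -0.06 to 0.28 on the log2 scale, while that of Cyp7b1 in the same cells ran from -0.05 to 3.07.

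**Figure D4:**
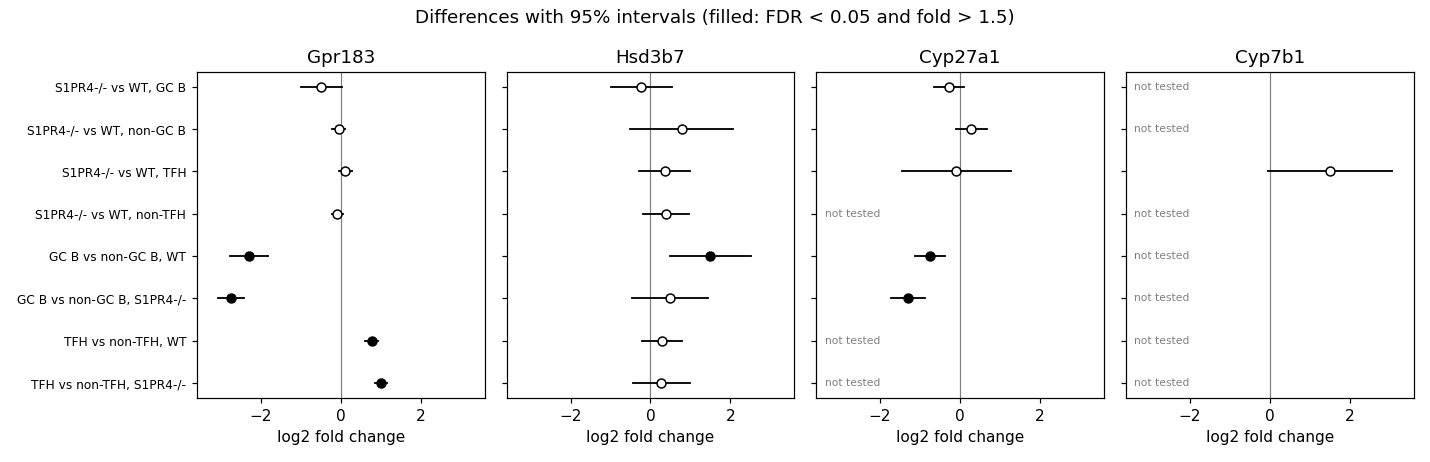
Log2 fold changes (horizontal axes) of Gpr183, Hsd3b7, Cyp27a1 and Cyp7b1 in 8 comparisons (vertical axis), with 95% intervals as lines. Filled circles passed both limits, an adjusted p under 0.05 and a fold over 1.5. All filled circles are comparisons between populations, with Gpr183 at -2.30 and -2.74 in GC B cells and at 0.78 and 1.00 in TFH cells.

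Levels of different genes can be compared only per length, and for this the counts were divided by the exon length of each gene and scaled to the same total in every sample (TPM). On that scale Gpr183 was at 639 ± 61 TPM in S1PR4-/- TFH cells and at 71.9 ± 27.1 TPM in WT GC B cells. Cyp27a1 reached 46.5 ± 12.3 TPM in S1PR4-/- non-GC B cells and 19.2 ± 4.67 TPM in WT GC B cells. The highest group means of the other enzymes were 2.44 TPM for Hsd3b7 and 1.78 TPM for Cyp7b1, both in S1PR4-/- TFH cells, and 0.0489 TPM for Ch25h in WT non-GC B cells. In each of the 8 groups the mean TPM of the receptor was above that of each enzyme. The sorted cells thus held receptor transcript. Of the synthesis pair, Ch25h was at or near 0 in every group, TFH cells included, and Cyp7b1 was at or near 0 outside TFH cells.

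Over the 45 samples and 16200 genes, the genes whose log2 CPM ran most like that of Gpr183 by Pearson's r were Dpp4 (0.988), the surface peptidase CD26, Trim8 (0.965), Stat4 (0.964), Ephx1 (0.955) and Arhgap18 (0.953). Those most like Cyp27a1 were Unc93b1 (0.977), which carries endosomal Toll-like receptors, Ctsh (0.977), a lysosomal protease, Irf5 (0.975), Cd74 (0.975), the invariant chain of MHC class II, and 5430427O19Rik (0.974). For Hsd3b7 the closest were Zfp995 (0.804), Plxna1 (0.798), Msl3l2 (0.797), Nif3l1 (0.797) and Lcmt1 (0.793). For Cyp7b1 they were 1810009J06Rik (0.884), a gene whose symbol is stored as a date (0.878), Arl6ip1 (0.873), Edn3 (0.867) and Gm2663 (0.86). These values describe likeness only. The 45 samples share 8 groups and their libraries, so a gene that differs between the same populations gets a high r.

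A set of 4 lists of related genes gave the setting. They held 14 EBI2 signalling partners, 28 other oxysterol and bile acid enzymes, 29 oxysterol sensors and their targets, and 13 regulators of Gpr183 and other positioning receptors. Between S1PR4-/- and WT, the only listed gene called in all 4 populations was S1pr4 itself, at log2 differences of -9.47 in GC B, -9.45 in non-GC B, -6.77 in TFH and -7.56 in non-TFH cells. The other listed gene called was Rgs2, a regulator that shortens G protein signals, in TFH cells, where it fell from 25.1 to 16.7 CPM (-0.59, SE 0.10, edgeR adjusted p 0.0179). The 12 other positioning genes tested in TFH cells were not called. The median of that list, the deleted S1pr4 included, was -0.43 there against -0.002 over all genes. Among them S1pr1, an egress receptor, was at -0.52 (edgeR adjusted p 0.00575) and Klf2, a transcription factor of recirculating T cells, at -0.57 (edgeR adjusted p 0.0499), both with a fold under 1.5.

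Between populations more of the listed genes moved. In WT TFH against non-TFH cells, 6 of 13 positioning genes tested rose, 6 fell and 1 was not called, with a list median of 0.82 against 0 over all genes. Of all genes tested there, 22.8% rose and 20.4% fell. Cxcr5, the follicle-homing receptor used in the gate, was at 945 against 16.1 CPM, a log2 difference of 5.88 (SE 0.20). Ccr7, the T zone receptor, was lower (-3.50), and Rgs16 (3.35), a regulator of G protein signals, and Cxcr3 (3.19), a chemokine receptor, were higher on the same scale. In the same comparison 2 of 12 signalling partners rose and 2 fell, 6 of 14 enzymes rose and 2 fell, and 8 of 29 sensors and targets rose and 6 fell. In S1PR4-/- mice the counts were 7 higher and 5 lower of 13 positioning genes, 1 and 4 of 12 partners, 4 and 1 of 14 enzymes, and 8 and 5 of 29 sensors and targets, where 22.3% of all tested genes were higher and 21.1% lower.

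In WT GC B against non-GC B cells, 8 of 13 positioning genes fell and 3 rose, with a list median of -0.73 against 0.002 over all genes, while 6 of 12 signalling partners rose and 1 fell, with a list median of 0.59. Of all genes tested there, 24.8% rose and 23.1% fell. The named genes, all higher in GC B cells on the log2 scale, were Rgs13 (7.71), a regulator typical of GC B cells, S1pr2 (7.47), the confinement receptor of the GC, Cxcr3 (5.85) and Osbpl3 (4.19), an oxysterol-binding-protein relative. The other enzymes gave 1 higher and 3 lower of 13, and the sensors and targets 7 higher and 7 lower of 27. In S1PR4-/- mice 5 of 12 positioning genes fell and 3 rose, and 6 of 12 partners rose and 1 fell, where 25.3% of all tested genes rose and 22.9% fell.

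Across lineages in WT mice, 8 of 14 enzymes tested were lower in GC B than in TFH cells and 1 was higher, and 6 of 13 were lower in non-GC B than in non-TFH cells and 2 were higher. The lower genes were 24.2% of all tested in the first of these comparisons and 19.1% in the second. On the log2 scale Rgs13 (10.2) and Apoe (5.41), which carries lipids, were higher in GC B than in TFH cells, and Rora (-9.38), a nuclear receptor that binds sterols, was lower. Pax5 (9.71), a factor of B cell identity, and Apoe (6.05) were higher in non-GC B than in non-TFH cells, where Rora (-8.24) and Rgs1 (-7.07) were lower.

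**Figure D5:**
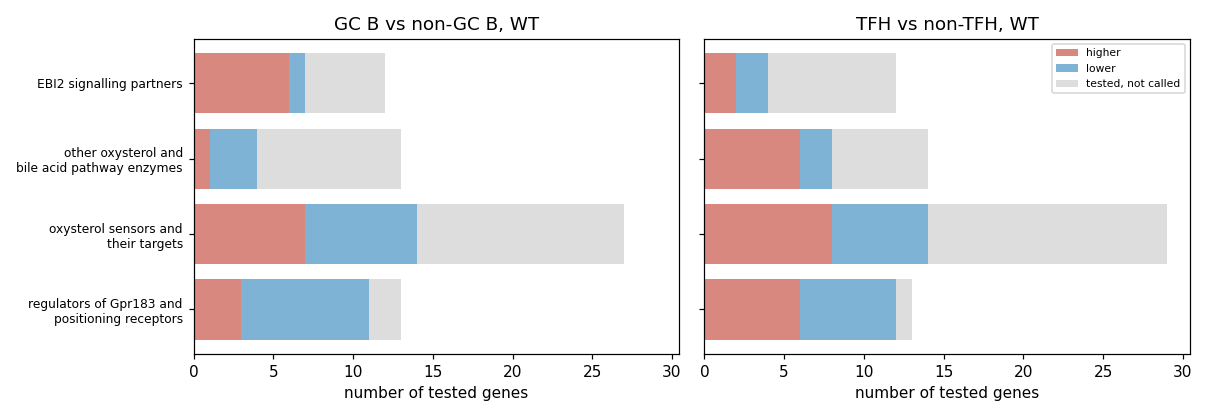
Number of tested genes (horizontal axes) of 4 related lists (vertical axis) that were higher, lower or not called in WT GC B against non-GC B cells (left) and WT TFH against non-TFH cells (right). In the list of regulators and positioning receptors, 11 of 13 were called on the left, 8 of them lower, and 12 of 13 on the right, 6 in each direction.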

How the data were processed

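RNA-seq was run on 45 samples of sorted cells. Per the labels and the study's methods, reads from stranded libraries were trimmed (Cutadapt 2.10), aligned to mm10 (STAR 2.5.3) and counted per gene with RSEM 1.3.0; Picard and DESeq2 are also named. The strand setting of the counting is not given in the sources used here. The authors deposited 1 table of expected counts, of which 8.83% were not whole. These were rounded. Each comparison was fitted on its own groups with edgeR 4.0.16 (limma 3.58.1, R 4.3.3): filterByExpr, TMM scaling, the quasi-likelihood test and Benjamini-Hochberg adjustment over all genes tested. Calls needed an adjusted p under 0.05 and a fold over 1.5, and interactions the first alone. CPM used TMM over all samples. Pearson's r between genes was taken on log2 CPM (prior count 2). Lengths and positions came from GENCODE M21, with a length for 55208 of 55450 symbols (99.6% of counts). Genes that failed the filter had exact permutation tests of mean log2 CPM between samples (scipy 1.17.1), and folds from pooled counts over total library counts. The 4 listed genes with the largest differences in WT were named if called and at a mean of at least 5 CPM; 1 such gene is not reported here. No pair of samples was identical. Alternatives were DESeq2 1.42.0, limma voom, other scaling, no filter, other covariates, and leaving out each sample. The fits were tested on simulated data. Members and lists were chosen with earlier results of these data known. Depth limits genes under about 1 CPM. Limits from 3 counts cover counting error only, while 95% intervals come from the spread between samples.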

Additional observations from a re-analysis of the deposited data

Results flagged for a closer look

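Each of the 5 genes was checked in each group of at least 4 samples for a sample set apart from the rest by more than Dixon's 95% limit. Of 30 groups with reads, 6 had such a sample. The limit is set for about 1 in 20 groups of normally spread values. Genes with few counts are not spread that way, so the 6 cannot be set against that rate. Of the 6, 2 are reads in single samples of a gene at 0 in the rest of its group, a case that the check always flags. They are Ch25h in WT TFH replicate 4, at 0.0455 CPM from 2 counts, and Cyp7b1 in S1PR4-/- GC B replicate 6, at 0.0889 CPM from 3 counts.

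Hsd3b7 in S1PR4-/- non-TFH replicate 1 was at 3.01 CPM, with the next sample at 1.48 CPM. In the same sample Cyp27a1 was at 0.335 CPM, with the next at 0.0905 CPM. Cyp27a1 in WT non-GC B replicate 2 was at 18.1 CPM, below the next at 26.5 CPM. Cyp27a1 in S1PR4-/- TFH replicate 6 was at 2.51 CPM, with the next at 0.647 CPM, and this sample also had the macrophage marker sum of 469.5 CPM given above.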

How the results depend on the processing

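For the 5 genes, 304 of 312 values under other settings kept their direction and their side of the limits, 1 lost its call and 7 changed sign. Of 522 values with 1 sample left out, 490 kept both, 1 gained a call and 31 changed sign. None of the sign changes was in a called value. With other-lineage markers as covariates the S1PR4-/- against WT differences in TFH cells became -0.009 for Cyp7b1, -0.077 for Hsd3b7 and 0.08 for Cyp27a1. The Cyp27a1 genotype effect in TFH minus that in non-TFH cells, 0.015, became -0.13 with limma voom, -0.019 with all 8 groups in one fit, -0.12 with Xist as a covariate and -0.063 with the lineage markers. Cyp27a1 in WT GC B against non-GC B cells lost its call with all 8 groups in one fit (-0.82). With 1 sample left out, the genotype difference of Gpr183 in non-GC B cells ran from -0.081 to 0.002, that of Cyp27a1 in TFH cells from -1.11 to 0.15 and its ratio in non-TFH cells from 0.227 to 1.60. Hsd3b7 in GC B against TFH cells ran from -0.75 to -0.41, and the effect in TFH minus that in non-TFH cells from -0.27 to 0.24 for Hsd3b7 and from -0.98 to 1.89 for Cyp27a1. The cause was not tested.

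The numbers of all genes called moved more. For S1PR4-/- against WT in GC B cells, 8 became 14 with DESeq2. In non-GC B cells, 7 became 16 with DESeq2 and 25 with all 8 groups. In TFH cells, 67 became 191 with DESeq2, 153 with all 8 groups, 149 with Xist and 10 with lineage markers, and 15 to 117 with 1 sample left out. In non-TFH cells, 15 became 56 with DESeq2, 9 with Xist, 9 with lineage markers, and 11 to 27 with 1 sample left out. The TFH interaction count of 2 became 1 with total counts, 76 with DESeq2, 1 with voom, 14 with Xist, 0 with lineage markers, and 0 to 6 with 1 sample left out. The GC B interaction count of 0 became 6 with DESeq2, 5 with all 8 groups, and 0 to 1 with 1 sample left out. Of 35 neighbour steps, 4 passed on TPM, against 2.

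Equal replicate numbers are not said to mark the same mouse, and the main tests did not take them as pairs. In no comparison did every pair of equal numbers correlate over 0.1. The replicate block changed no call of the 5 genes and raised the TFH interaction count to 41. In S1PR4-/- TFH and non-TFH cells, 6 of 6 samples correlated best with their own number.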
